A study of Mus musculus with 2 samples.

Results

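The genes described here are 10 markers of extraembryonic endoderm: Tfpi, Apob, Apoe, Nid1, Sparc, Gata4, Gata6, Dab2, Pdgfra and Ttr. They were measured on 2 Affymetrix 3' expression arrays of E14 cells, an established mouse embryonic stem cell line. One array held RNA of cells infected with lentivirus for a short hairpin RNA (shRNA) to Mll2, a histone methyltransferase, and the other RNA of cells infected with a control shRNA. Cells of both kinds are described as infected for 24 h and then selected in puromycin for 5 days. The members were chosen by their use as lineage markers with the log2 ratios of these same 2 arrays in view, Tfpi and Apob among the largest. Their ratios are therefore a description. The platform annotation paired 29 of 45037 probe sets with a member symbol alone, and no probe set with a member and a further gene. With a single array for each group, differences have no replicate check and no p-value is given. The knockdown leaves the gene itself in place.

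Extraembryonic endoderm begins as the primitive endoderm, a layer that forms beside the pluripotent epiblast in the blastocyst. FGF4 from the epiblast acts through FGF receptors and ERK in the future endoderm cells, which switch on GATA6 and then GATA4, SOX17 and SOX7. The layer becomes visceral endoderm, an absorptive epithelium that secretes apolipoproteins and plasma carrier proteins, and parietal endoderm, which lays down a thick basement membrane. Embryonic stem cells come from the epiblast side, and cultures of them can hold some cells with endoderm transcripts. In bulk RNA, fewer cells of a type and less RNA per cell cannot be told apart.

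As a check of the knockdown, Mll2 has been a name of both Kmt2d and Kmt2b. Kmt2d had a signal of 335 in Mll2 shRNA cells and 736 in control shRNA cells in its only probe set above the floor (log2 ratio -1.14), and Kmt2b 852 and 901. The floor was the median of all values, a signal of 64.7 or 6.02 on the log2 scale. Lower values were raised to it, and a gene counted as measured when a probe set exceeded it on at least 1 array. Where 1 array was under the floor, a ratio is a lower bound in size. The 2% trimmed mean signal was the same on both arrays, at 500. MAS5 scales each array, so this is no check of the samples. All 13 embryonic stem cell markers listed were measured, and Pou5f1 (Oct4) had 6975 and 9467, Sox2 12755 and 12125, and Nanog 6864 and 4950 in Mll2 shRNA and control shRNA cells.

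Of the 10 members, 7 were measured. Tfpi and Apob were at least 2-fold higher in Mll2 shRNA cells, and none was at least 2-fold lower. Among all 11805 measured genes the share at 2-fold or more was 1.47% upward (173 genes) and 0.983% downward (116 genes). Because the members were chosen from this contrast, nothing is read from their count. The ratios of the measured members did not run one way. Tfpi, Apob, Nid1 and Gata6 lay above 0 and Sparc, Dab2 and Apoe below, with a median log2 ratio of 0.03 for the 7 members and 0.03 for all measured genes.

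**Figure D1:**
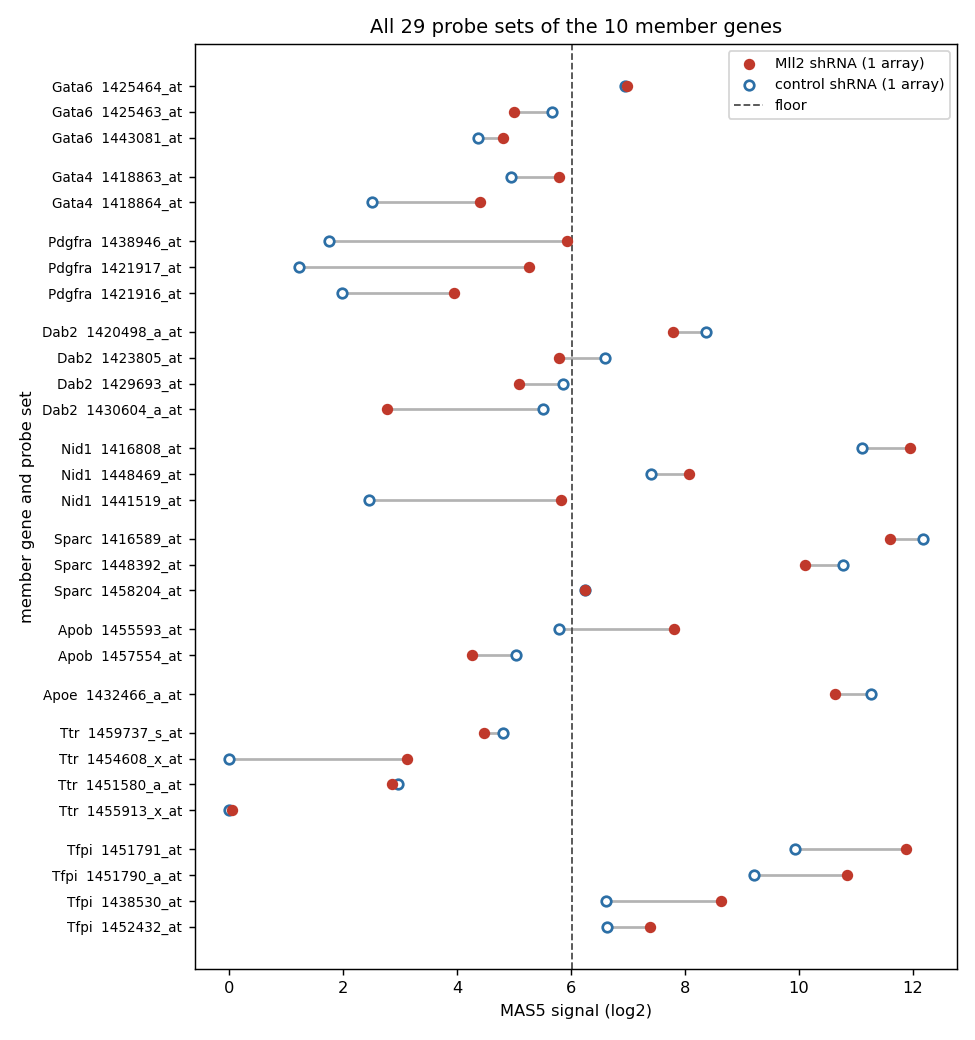
Log2 MAS5 signal (horizontal axis) of each of the 29 probe sets of the 10 members (vertical axis), with a filled point for the Mll2 shRNA array, an open point for the control shRNA array and a dashed line at the floor of 6.02. The 4 Tfpi probe sets lie above the floor with the filled point to the right, whereas all probe sets of Gata4, Pdgfra and Ttr lie under it.

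Tfpi encodes tissue factor pathway inhibitor, a secreted protein with Kunitz domains that blocks the factor VIIa and tissue factor complex and factor Xa. It is made by endothelium and trophoblast as well as by parietal endoderm. Its brightest probe set, 1451791_at, had a signal of 3767 in Mll2 shRNA cells and 980.2 in control shRNA cells, a 3.84-fold difference. The second, 1451790_a_at, had 1836 in Mll2 shRNA cells and 593 in control shRNA cells (3.09-fold). Probe set 1438530_at had 395 and 98.4 on these arrays (4.02-fold). All 3 thus gave 3-fold or more, and the fourth, 1452432_at, gave less, with 166 in Mll2 shRNA cells and 99.7 in control shRNA cells (1.67-fold). The mean log2 ratio was 1.58 ± 0.58 (SD over 4 probe sets, which were read on the same arrays and can share sequence). The log2 ratio of 1.94 in the brightest probe set was 6.90 times the spread of ratios at its level, 0.28. That spread is the scaled median absolute deviation over the 500 genes nearest in mean level, and 0 of these genes had a ratio as high. It mixes array noise with true changes of those genes and says nothing of how separate cultures vary. Because the members were chosen with these ratios in view, a member's place among its neighbours is a description only.

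Apob encodes apolipoprotein B, the structural protein of the lipoprotein particles that yolk sac endoderm, liver and intestine secrete. Probe set 1455593_at had a signal of 223 in Mll2 shRNA cells and 55.4, under the floor, in control shRNA cells. It was therefore at least 3.45-fold higher, a log2 ratio of at least 1.78 at a level where the spread was 0.48. A ratio as high was seen in 2 of its 500 neighbours in level. Because the control value was raised to the floor, neighbours of lower mean level could not reach this ratio. The count is therefore not comparable with those of the other members. The other Apob probe set, 1457554_at, stayed under the floor, with 4.25 (log2) in Mll2 shRNA cells and 5.03 in control shRNA cells, and gave no ratio. The Apob difference thus rests on 1 of 2 probe sets and on a control value close to the floor.

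Stretches upstream of the annotated starts are shown for the members with the highest ratios and for Dab2, whose upstream start held a GATA motif. GATA factors bind such motifs in endoderm genes. The sequences are from RefSeq (GRCm38.p6), read 5′ to 3′ on the strand of the gene, and stop where the gene model begins. Capitals mark AGATAA or TGATAA, searched on both strands. Tfpi is on the minus strand with starts at a pair of places, and the second window, chr2:84474175-84474424, lies inside the gene model. The others are chr2:84476776-84477009 for the upstream Tfpi start, chr12:7977427-7977628 for Apob, chr13:13437352-13437601 for Nid1 and chr15:6299539-6299787 for the upstream Dab2 start, these 3 on the plus strand.
Tfpi, upstream start: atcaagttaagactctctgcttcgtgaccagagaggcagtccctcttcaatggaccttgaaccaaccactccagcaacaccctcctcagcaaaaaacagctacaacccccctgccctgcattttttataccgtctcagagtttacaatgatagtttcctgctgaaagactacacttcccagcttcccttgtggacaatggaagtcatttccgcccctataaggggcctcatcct
Tfpi, downstream start: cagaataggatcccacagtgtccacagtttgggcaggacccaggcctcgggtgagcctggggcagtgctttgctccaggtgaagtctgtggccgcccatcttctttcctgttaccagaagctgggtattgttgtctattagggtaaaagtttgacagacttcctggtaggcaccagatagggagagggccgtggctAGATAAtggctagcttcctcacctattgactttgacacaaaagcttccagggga
Apob: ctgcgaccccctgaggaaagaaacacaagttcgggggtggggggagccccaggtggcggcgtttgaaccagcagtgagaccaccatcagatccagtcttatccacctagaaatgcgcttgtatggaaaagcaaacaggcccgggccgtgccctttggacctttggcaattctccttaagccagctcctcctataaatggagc
Nid1: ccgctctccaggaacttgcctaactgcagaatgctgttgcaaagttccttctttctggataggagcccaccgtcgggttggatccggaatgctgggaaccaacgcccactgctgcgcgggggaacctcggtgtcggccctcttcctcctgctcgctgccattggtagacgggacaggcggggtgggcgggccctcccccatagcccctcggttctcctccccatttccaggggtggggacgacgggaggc
Dab2, upstream start: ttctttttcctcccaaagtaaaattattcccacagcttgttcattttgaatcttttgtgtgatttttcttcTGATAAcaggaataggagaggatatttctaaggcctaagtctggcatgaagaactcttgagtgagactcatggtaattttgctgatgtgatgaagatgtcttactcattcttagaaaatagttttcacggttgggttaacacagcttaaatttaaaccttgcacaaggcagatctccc

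The downstream Tfpi start had AGATAA with its first base 54 bases before the start, and the upstream Dab2 start had TGATAA 179 bases before it. No other window of 250 bases among the 11 starts of the 7 members in the table (Tfpi, Apob, Apoe, Nid1, Sparc, Dab2 and Pdgfra) held these letters. Of the members' starts 2 of 11 (18.2%) held a match, and of all 32851 starts 16.6%, so the share of the members was near that of all genes. The match was present in a gene that was higher and in one whose ratio was negative. The windows had a median GC content of 54.0% for the members and 52.4% for all starts.

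Nid1 encodes nidogen 1, which links laminin and collagen IV networks in basement membranes. Probe set 1416808_at had a signal of 3935 in Mll2 shRNA cells and 2207 in control shRNA cells (1.78-fold). Probe set 1448469_at had 269 and 170.4 on the same arrays (1.58-fold). The mean log2 ratio over both was 0.75 ± 0.12 (SD over 2 probe sets). The brighter one lay at 0.83, or 3.65 times the spread of 0.23 at its level, and 6 of its 500 neighbours in level reached that ratio. Nid1 was under 2-fold in both.

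Sparc encodes a secreted calcium-binding matrix protein that is abundant in parietal endoderm and binds collagen. In probe set 1416589_at its signal was 3111 in Mll2 shRNA cells and 4624 in control shRNA cells, a log2 ratio of -0.57. Probe set 1448392_at had 1098 and 1750.4 and a log2 ratio of -0.67. The third, 1458204_at, lay just above the floor with 76.3 in Mll2 shRNA cells and 75.4 in control shRNA cells, and had a log2 ratio of 0.02. The members with matrix functions thus pointed in opposite directions, Nid1 at 0.83 and Sparc at -0.57 in their brightest probe sets. The Sparc ratio was -2.53 times the spread at its level, with 5 of 500 genes as low.

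Apoe encodes apolipoprotein E, a ligand of the LDL receptor family that also marks macrophages and astrocytes. Its only probe set, 1432466_a_at, had a signal of 1589 in Mll2 shRNA cells and 2464 in control shRNA cells. The log2 ratio was -0.63, or -2.25 times the spread at that level, with 9 of 500 genes as low. Both apolipoproteins of the panel were detected, with Apob higher and Apoe 1.55-fold lower in Mll2 shRNA cells. Ttr encodes transthyretin, a carrier of thyroid hormone and of retinol-binding protein that visceral endoderm secretes. Its 4 probe sets were under the floor on both arrays, and the brightest read 4.47 (log2) in Mll2 shRNA cells and 4.81 in control shRNA cells, so no difference was detectable.

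**Figure D2:**
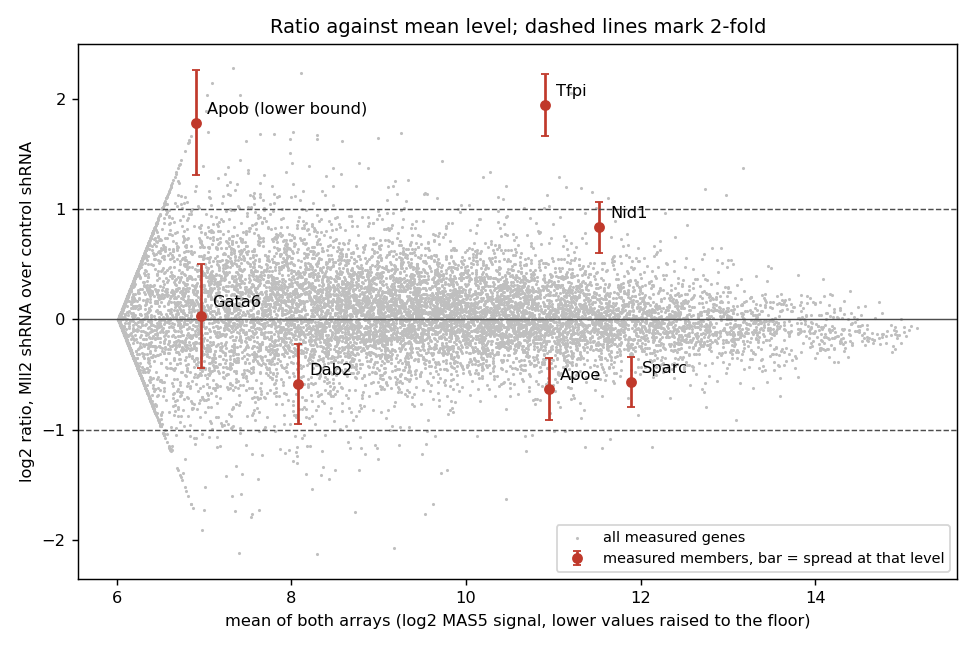
Log2 ratio of Mll2 shRNA over control shRNA (vertical axis) against the mean log2 signal of both arrays (horizontal axis) for all 11805 measured genes in grey and the 7 measured members in red, whose bars are the spread at their level. Tfpi and Apob (a lower bound) lie above the dashed 2-fold line, Nid1 under it at 0.83, Gata6 near 0, and Sparc, Dab2 and Apoe between -0.57 and -0.63.

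Gata6 and Gata4 encode zinc-finger transcription factors at the head of the endoderm programme. Gata6 had a signal of 126 in Mll2 shRNA cells and 124 in control shRNA cells in probe set 1425464_at, a log2 ratio of 0.03 where genes of that level spread by 0.47. Its other probe sets, 1425463_at and 1443081_at, were under the floor on both arrays. Gata4 was under the floor in both probe sets, reading 5.79 (log2) in Mll2 shRNA cells and 4.95 in control shRNA cells in the brighter. Gata6 was thus dim and alike on both arrays in its only measured probe set, and Gata4 gave no ratio. Any part of these factors in the ratios of Tfpi and Apob was not tested.

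Dab2 encodes an endocytic adaptor for megalin and cubilin that primitive endoderm needs for its position in the embryo. Probe set 1420498_a_at had a signal of 221 in Mll2 shRNA cells and 331 in control shRNA cells, a log2 ratio of -0.59 with a spread of 0.36. Probe set 1423805_at had 55.2, under the floor, and 96.3, so that the log2 ratio of -0.57 is a lower bound in size. The other 2 were under the floor on both arrays. All 4 Dab2 values were lower in Mll2 shRNA cells, but 39 of 500 neighbours in level were as low as the brightest. Pdgfra encodes the receptor for PDGF-A and PDGF-C and is an early primitive endoderm marker that also marks mesenchyme. All 3 of its probe sets were under the floor on both arrays, and the brightest read 5.93 (log2) in Mll2 shRNA cells and 1.74 in control shRNA cells, and no fold is given for it.

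Checked against defining markers, the endoderm label was only partly met on these arrays. Of the 8 markers listed for it, Gata4, Gata6, Sox17, Sox7, Foxa2, Hnf4a, Dab2 and Pdgfra, 3 were under the floor on both arrays, Gata4, Pdgfra and Hnf4a. Of the other 5, Gata6 and Dab2 are the members with log2 ratios of 0.03 and -0.59. Sox17 had a signal of 97.2 in Mll2 shRNA cells and 54.6 in control shRNA cells, a log2 ratio of at least 0.59, and Sox7 had 76.4 and 59.2, a log2 ratio of at least 0.24. Both bounds were smaller than the spread at their level, 0.69 for Sox17 and 0.31 for Sox7, a spread that also holds floored ratios. A lower bound so close to the floor does not show how far these genes differed. Both genes are named here as defining markers. Foxa2, a forkhead factor of visceral and definitive endoderm and of axial mesoderm, had 601 and 128, 4.71-fold higher in its only probe set. The member genes are therefore markers of extraembryonic endoderm read in embryonic stem cells, and not a profile of that tissue.

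The pathways that the members belong to were described by 13 further lists, chosen with earlier results of these data known. They hold 193 genes, of which 128 were measured, with 7 of these higher and 2 lower in Mll2 shRNA cells by 2-fold or more. Among all measured genes the shares were 1.47% higher and 0.983% lower. Because the lists were chosen with results known, nothing is read from these counts or from those of single lists. The other endoderm transcription factors had 11 of 15 measured and a median log2 ratio of 0.18, with Foxa2 alone at 2-fold. Sall4, a zinc-finger factor of both epiblast and primitive endoderm, was lowest at -0.58, with 0.15 in its second probe set. The signalling list had 15 of 17 measured and a median of -0.09. In it Pdgfc, a ligand of the receptor that Pdgfra encodes, had 4616 in Mll2 shRNA cells and 2152 in control shRNA cells (2.14-fold, with a log2 ratio of 0.72 in its second probe set). Fgf4, the epiblast ligand, had the lowest log2 ratio, -0.65, with -0.32 in its second probe set. Of the FGF receptors listed, Fgfr2 had 0.77, and 0.28 in its second probe set, whereas Fgfr1 had -0.45, and -0.17 in its second. Pdgfa, which encodes the ligand PDGF-A, had -0.19, and -0.62 in its second probe set, opposite in direction to Pdgfc. Fgfr2, Fgfr1 and Pdgfa were picked after their values were seen.

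The list of basement membrane and parietal endoderm secretion had 18 of 20 genes measured and a median log2 ratio of 0.10. In it 10 genes lay above 0 and 8 below, and of all 11805 measured genes 6312 lay above and 5493 below. Nothing is read from this split. Plat, tissue plasminogen activator, which parietal endoderm secretes, had a signal of 119 in Mll2 shRNA cells and 243 in control shRNA cells and was 2.04-fold lower. Nid2, the paralogue of Nid1, had a log2 ratio of 0.13, and the laminin and collagen IV chains Lama1, Lamb1, Lamc1, Col4a1 and Col4a2 ran from -0.22 to 0.33. These 6 were looked up after their values were seen. The spread at their level was 0.22 to 0.42, and the second probe sets of Lamc1 and Col4a1 gave -0.32 and -0.36.

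Among lipoprotein genes, 11 of 23 were measured, with a median log2 ratio of 0.15, and 3 were at least 2-fold higher. Abca1, which exports cholesterol to apolipoproteins, had a signal of 3344 in Mll2 shRNA cells and 1363 in control shRNA cells (2.45-fold). Vldlr, a receptor for lipoproteins that carry apolipoprotein E, had 242 and 102 (2.37-fold). Apobec1, the deaminase that edits Apob mRNA, had 273 and 125 (2.18-fold). Each of these rests on 1 measured probe set. Mttp, which loads lipid onto apolipoprotein B, had 115 and 116 and was picked after its values were seen. The liver-type apolipoprotein genes Apoa1, Apoa2, Apoa4, Apoa5, Apoc2, Apoc3, Apoc4 and Apom were under the floor on both arrays. The visceral endoderm products Afp, Alb and Cubn were also under it. Apoc1 was measured, with 552 in Mll2 shRNA cells and 731 in control shRNA cells (log2 ratio -0.41). Of the visceral endoderm list, Lrp2 had 0.28, and -0.20 in its second probe set, Amn -0.18 and Rbp4 0.35. Apoc1, Lrp2, Amn and Rbp4 were picked after their values were seen. The uptake and plasma carrier list had 8 of 18 measured, a median of 0.02 and none at 2-fold, with Dpp4, a cell-surface peptidase, at 0.64 and the zinc transporter gene Slc39a4 at -0.77.

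In the tissue factor pathway, 11 of 19 genes were measured, with a median log2 ratio of 0.14 and none at 2-fold. The highest was Thbd, thrombomodulin, a marker of parietal endoderm that turns thrombin toward protein C, at 0.73. The lowest was Gas6, a vitamin K-dependent ligand, at -0.96. F3, tissue factor itself, had a signal of 2897 in Mll2 shRNA cells and 2000.4 in control shRNA cells, a log2 ratio of 0.53 with a spread of 0.28. Tfpi2, a paralogue of Tfpi, had 77.1 and 19.0, at least 1.19-fold higher. The proteases that Tfpi inhibits, F7 and F10, were under the floor on both arrays. F3, Tfpi2, F7 and F10 were picked after their values were seen.

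**Figure D3:**
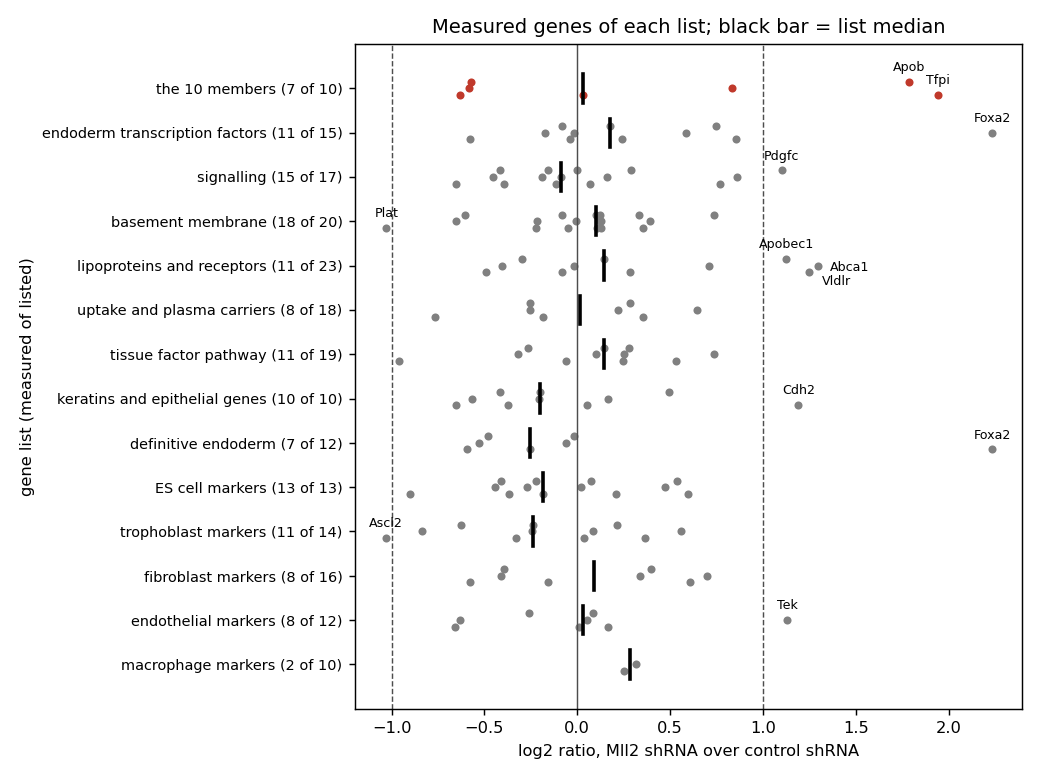
Log2 ratio of Mll2 shRNA over control shRNA (horizontal axis) of each measured gene in the panel, in red, and in the 13 other lists, in grey, with a black bar at each list's median and names at 2-fold or more. All list medians lie between -0.25 and 0.28, and the members Tfpi at 1.94 and Apob at 1.78 lie apart from the other members.

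Of 10 keratin and epithelial genes, all were measured and the median log2 ratio was -0.20. Cdh2, N-cadherin, had a signal of 3849 in Mll2 shRNA cells and 1687 in control shRNA cells (2.28-fold, with a log2 ratio of 0.83 in its second probe set). Krt19, an epithelial keratin, was lowest at -0.65. In the definitive endoderm list 7 of 12 were measured with a median of -0.25, and Foxa2, which is also in the transcription factor list, was the only one above 0. Tmprss2, a membrane protease, was lowest there at -0.59.

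Several members also mark other cells, so marker lists of these are given beside them. Of 16 fibroblast markers, 8 were measured, and the signal of the 15 with a probe set, under the floor or not, summed to 17733 in Mll2 shRNA cells and 13716 in control shRNA cells. Of that sum 16382 and 12423 were Vim, which embryonic stem cells can express and which was picked after its values were seen. Col1a2 had a log2 ratio of 0.70. Col1a1 had -0.58, a lower bound in size, and 0.0036, also a bound, in its second probe set. Dcn, Lum, Postn, Thy1 and Prrx1 were under the floor on both arrays. Of 12 endothelial markers, 8 were measured, and all 12 summed to 1353 in Mll2 shRNA cells and 1133 in control shRNA cells. Tek, the angiopoietin receptor gene, had 493 and 225 (2.19-fold) and Esam a log2 ratio of -0.66, and Pecam1, Tie1 and Emcn were under the floor on both arrays. Of 14 trophoblast markers, 11 were measured, and the 13 with a probe set summed to 2536 in Mll2 shRNA cells and 2921 in control shRNA cells. Ascl2 was at least 2.05-fold lower, with a log2 ratio of -0.12, a lower bound in size, in its second probe set, and Hand1 was highest at 0.56, also a bound. Of 10 macrophage markers 2 were measured, Cd68 at 0.32 and Csf1r at 0.25, a lower bound. The second probe set of Csf1r gave -0.11, also a bound. The macrophage list summed to 417 in Mll2 shRNA cells and 439 in control shRNA cells, and Itgam was listed at 0 in Mll2 shRNA cells. Of the embryonic stem cell markers Klf4 was highest at 0.59 and Lin28a lowest at -0.90, with a median of -0.18. The part of other cell types in the members' ratios was not tested.

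The ratios of the members were recomputed under 10 other ways of processing. Tfpi stayed between 1.58 and 2.06 and Nid1 between 0.75 and 0.95 on the log2 scale. Apob ran from 1.26 with a pseudocount equal to the floor to 2.01 with a lower floor, and was not measured with the floor at the 70th percentile. Sparc stayed between -0.57 and -0.41, Dab2 between -0.65 and -0.41 and Apoe between -0.65 and -0.52. Gata6 crossed 0, from -0.0056 after loess to 0.15 with spike-in scaling.

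**Figure D4:**
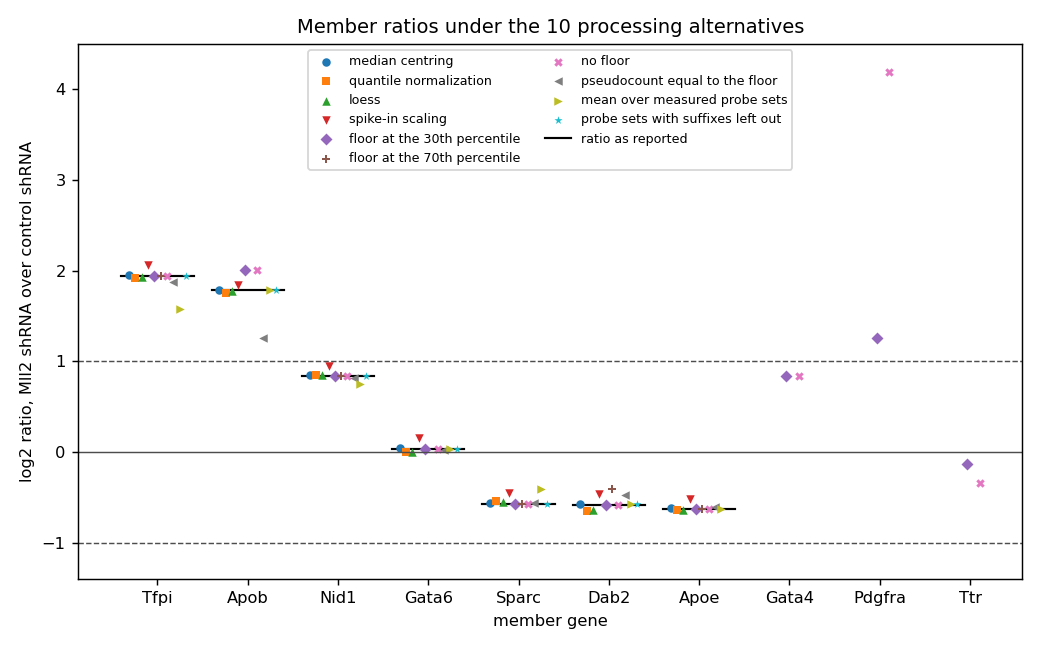
Log2 ratio of Mll2 shRNA over control shRNA (vertical axis) of the members (horizontal axis) under 10 processing alternatives, 1 symbol each, with a black line at the ratio as reported. Tfpi stays between 1.58 and 2.06 and Apob between 1.26 and 2.01, while Gata4, Pdgfra and Ttr have symbols only when the floor is at the 30th percentile or left out.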

How the data were processed

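The deposited table holds log2 values of 45101 probe sets on each of the 2 arrays. MAS5 was used by the authors, per the submitters' processing notes, and the software version is not given in the sources used here. MAS5 subtracts mismatch signal and scales each array alone, so dim probe sets are noisy, and the number of arrays limits the precision. The 64 control probe sets were set aside. Of the other 45037, the platform annotation gave 34945 a single symbol and 932 several, and 9160 were unnamed here. Of those with a single symbol, 34741 had a gene number found in RefSeq (GRCm38.p6), and the symbol given there was used. Values were floored at the 50th percentile. The probe set with the highest mean stood for a gene, and a ratio of 2-fold counted as a difference. With 1 array per group no test was possible. The steps were tested on simulated data, with less noise than the spread at the members' levels. Changes were put only into genes far above the floor, so changes in dim genes were not covered.

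The members and lists were chosen with earlier results of these data known. Named were all members, in each list the genes at 2-fold or, with none, the highest and lowest, and Kmt2d, Kmt2b, Pou5f1, Sox2 and Nanog. For some lists the highest or lowest gene is added, and other genes outside this rule are marked, stand in counts of genes under the floor, or are defining endoderm markers (Sox17 and Sox7). Alternatives were median centring, quantile normalization, loess, scaling on 18 bacterial spike-in probe sets, a floor at the 30th or the 70th percentile or none, a pseudocount of the floor signal, averaging the probe sets of a gene, dropping suffixed probe sets, and thresholds of 1.5-fold and 3-fold. Python 3.11.15, numpy 2.4.6, pandas 2.3.3, scipy 1.17.1, matplotlib 3.10.9, R 4.3.3 and limma 3.58.1 were used.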

Additional observations from a re-analysis of the deposited data

Results flagged for a closer look

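In 6 member probe sets both arrays lay under the floor, so that no comparison used them, but the value in Mll2 shRNA cells was above that in control shRNA cells by at least 1 on the log2 scale. For Pdgfra all 3 probe sets did so, with log2 values of 5.93 in Mll2 shRNA cells and 1.74 in control shRNA cells (1438946_at), 5.26 and 1.22 (1421917_at), and 3.94 and 1.99 (1421916_at). Nid1 had 5.82 in Mll2 shRNA cells and 2.46 in control shRNA cells in 1441519_at, in the direction of its brighter probe sets. Gata4 had 4.40 in Mll2 shRNA cells and 2.51 in control shRNA cells in 1418864_at. Ttr had 3.12 in Mll2 shRNA cells and was listed at 0 in control shRNA cells in 1454608_x_at, while its other 3 probe sets did not differ by as much. These 6 were of 15 member probe sets under the floor on both arrays (40.0%), and 1 of the 15, for Dab2, was lower by at least 1. Of all 20966 probe sets under the floor on both arrays, 22.1% were higher by at least 1 and 23.3% lower by at least 1, so differences of 1 or more are common among dim probe sets. A difference of at least 3 upward was seen in 4 of the 15 member probe sets (26.7%, 2 of them for Pdgfra, 1 for Nid1 and 1 for Ttr) and in 3.98% of all dim probe sets. The cut of 3 was applied upward only. The members were chosen with the ratios of these same arrays in view, and the probe sets of a gene are not independent. Nothing is therefore read from these shares, and no test was possible.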

How the results depend on the processing

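The count of members at least 2-fold higher was 2 and that of members at least 2-fold lower was 0. A floor at the 70th percentile made the first 1, Apob being no longer measured, and with a threshold of 1.5-fold the second was 2. A floor at the 30th percentile, or none, added Pdgfra to the higher members, at 1.26 or 4.19 on the log2 scale. The median log2 ratio of the measured members, 0.03, became 0.43 when the floor was at the 30th percentile or left out, which measure all 10 members, 0.43 without suffixed probe sets, which leaves out Apoe, and -0.41 at the 70th, which measures 5. It is a median of few genes on both sides of 0. Of 67 recomputed member ratios, 65 moved by less than the spread at their level. The others were Tfpi at 1.58 as a mean over probe sets and Apob at 1.26 with the pseudocount. Many of the 67 could not move. Tfpi, Apoe, Nid1 and Sparc kept their ratios when only the floor changed, as did Apob, Apoe and Gata6 when probe sets were averaged. Gata4, Pdgfra and Ttr, which had no ratio as reported, are not among the 67. Spike-in scaling raised the median of all measured genes to 0.14, against 0.03 as deposited. It moved the measured members other than Apob by a similar amount. Apob, with its control value at the floor, moved less, from 1.78 to 1.85. Over all measured genes, the counts higher and lower were 173 and 116 as deposited (59.9% higher), 260 and 82 with spike-in scaling (76.0%), 144 and 138 after quantile normalization (51.1%), 507 and 494 for a floor at the 30th percentile (50.6%), 50 and 38 at the 70th, 1753 and 1744 with no floor (50.1%), 87 and 70 with the pseudocount, 875 and 556 at 1.5-fold, and 27 and 18 at 3-fold. No paired analysis was possible because each group had 1 array.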
